A study of Mus musculus with 10 samples.

Results

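The Hox, Dlx, Msx and T-box genes encode transcription factors that lay out the body plan in the embryo, and their read counts were examined here in lymphatic endothelial cells (LECs) of the mouse meninges. The members were found by symbol in the deposited count table and comprise every numbered gene of the Hoxa, Hoxb, Hoxc and Hoxd clusters, Dlx1 to Dlx6, Msx1 to Msx3 and every numbered Tbx gene except Tbx1. They number 60 of the 55401 genes listed, with 39 Hox, 6 Dlx, 3 Msx and 12 T-box genes.

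All animals were female mice aged 3 months, of the strain C57BL/6 by the labels and C57BL/6J by the study's methods. They were either naive (never stressed) or exposed to sub-chronic variable stress (SCVS), a schedule of changing stressors, for 6 days. Cells from the dura mater of 3 to 4 animals were pooled for each of 5 libraries per group, digested in the presence of the transcription inhibitor actinomycin D and sorted as CD45-negative, CD31-positive and PDPN-positive. The RNA was then expanded with a whole-transcriptome amplification kit before sequencing. The total count per library lay between 9984743 and 14094155, with a median of 13002155.

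The label of the cells was compared with the genes behind the sort and with LEC markers. Pecam1, which encodes CD31, had 5870 to 15644 counts in 9 libraries and 287 in naive 5. Prox1, the transcription factor that defines lymphatic fate, had 0 counts in naive 1, 2 in SCVS 5 and 15 in SCVS 1, against 56 to 2751 in the other libraries. Lyve1, a lymphatic surface receptor, had 2 counts in naive 1 and 1 in naive 5, against 946 to 10709 elsewhere. Pdpn had 0 counts in naive 1 and 51 to 2920 in the other 9 libraries. Ptprc, which encodes CD45, had at most 1 count in 7 libraries, but 27, 113 and 404 in SCVS 1, SCVS 4 and SCVS 5. Naive 1, naive 5 and SCVS 5 therefore had at most 3 counts of Prox1, Lyve1 or Pdpn and went against their label on that marker, and results of the tested members, Dlx3 and Tbx18 in which they held most reads of a group are given with and without them. Across genes, log2 CPM (the count scaled to a common library total) correlated between libraries of a group with r of 0.433 to 0.649 in naive and 0.539 to 0.633 in SCVS, over 10 pairs each, where the genes are not independent replicates.

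Hox genes are arranged in clusters whose order along the chromosome matches the order of their expression along the body axis, and the tissues of the front of the head form from cells that lie outside the Hox domains. Dlx and Msx genes are homeobox genes of the head mesenchyme that pattern the jaw, the teeth and the bones of the skull. T-box genes act in the limb, the heart and the wall of vessels, and the meninges and the skull share part of their embryonic origin with that head mesenchyme.

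Fewer of the patterning genes were detected than of the protein-coding genes in the same table, and those that were appeared in some pools at many reads and in others at 0. With detection set at more than 3 counts, 28 of the 60 members (46.7%) were detected in any library, 10 had 1 to 3 counts at most and 22 (36.7%) had no count at all. In the same table, 16359 of 21312 RefSeq protein-coding genes (76.8%) were detected in any library and 3362 (15.8%) had no count. Over the whole table, which includes noncoding genes and pseudogenes, 24195 of 55401 (43.7%) were detected and 25952 (46.8%) had no count, so the members lay between the protein-coding genes and the whole table. Of all values, 11.3% of the members' values exceeded 3 counts, against 49.5% for the protein-coding genes and 22.8% for the whole table. For a gene with no count, 3 counts correspond to 0.213 to 0.300 CPM in a single library and to 0.0238 CPM over all 10. These floors cover counting error only, because amplified reads without molecular identifiers are not independent molecules.

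The number of members detected was 10, 9, 4, 9 and 3 in naive 1 to 5 and 5, 6, 6, 7 and 9 in SCVS 1 to 5. The groups overlapped, with a mean of 7.00 ± 3.24 members in naive and 6.60 ± 1.52 in SCVS (SD, n = 5). Summed over the members, the level was 129, 81.4, 11.4, 70.2 and 29.6 CPM in naive 1 to 5. In SCVS 1 to 5 the sum was 51.7, 87.8, 61.7, 46.3 and 34.0 CPM. Naive 3 was the lowest and naive 1 the highest, and the SCVS libraries lay within the naive range. A single gene supplied much of each sum, from 27.7% in naive 2 (Tbx3) to 90.4% in SCVS 1 (Msx1). Of the 28 detected members, 13 exceeded 3 counts in 1 library only and 10 in 3 or more. By group, 6 members were detected in naive libraries only, 9 in SCVS libraries only and 13 in both, beside 1163, 1811 and 13385 of the 16359 detected protein-coding genes.

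**Figure D1:**
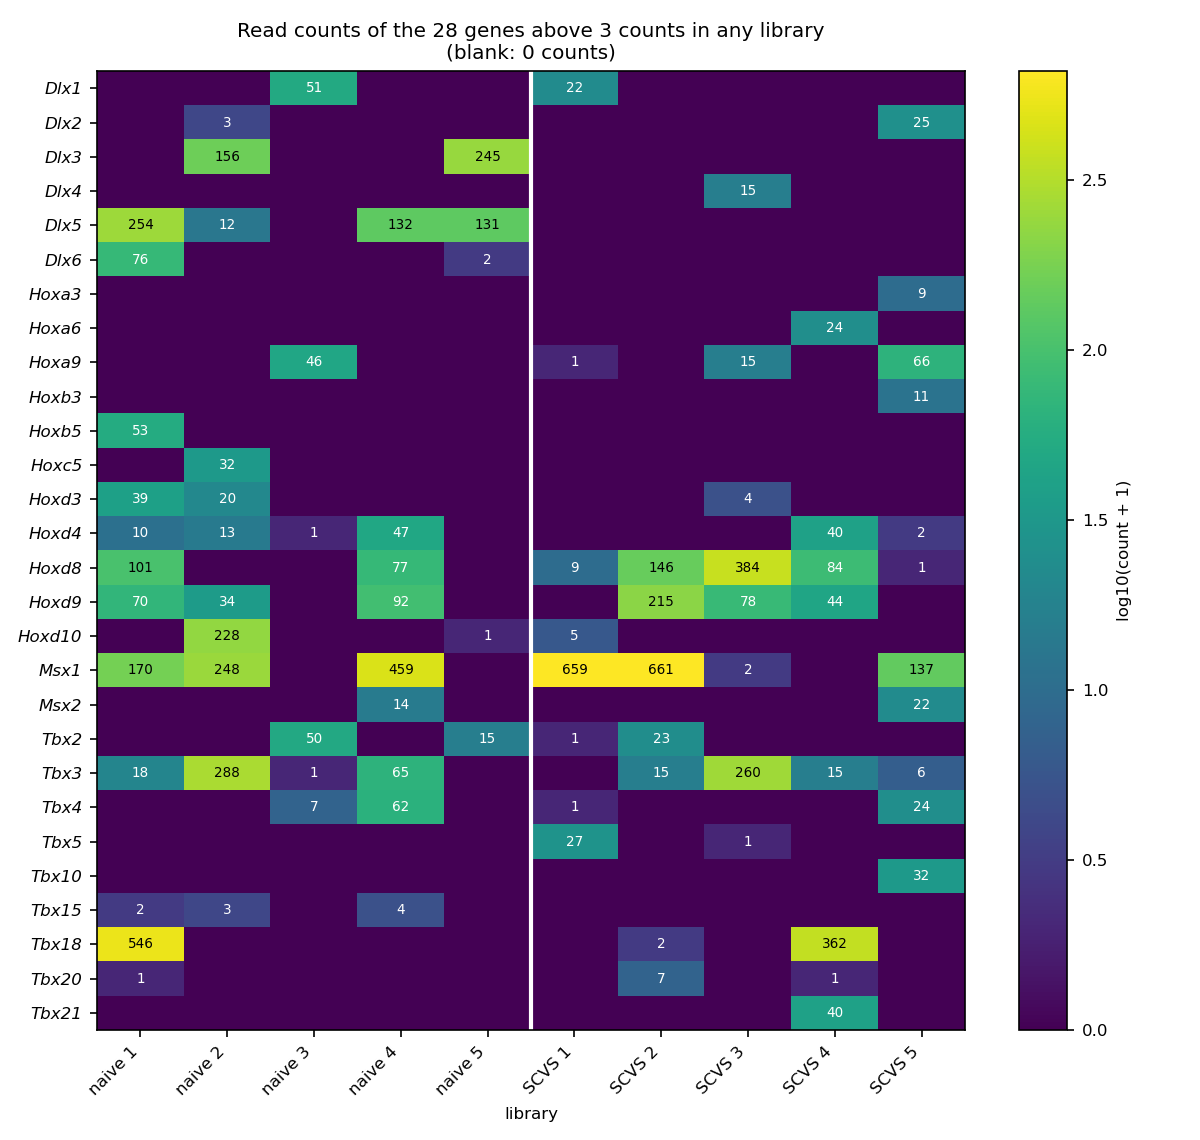
Read counts of the 28 members with more than 3 counts in any library, by library, with color showing log10 of the count plus 1 and the white line separating 5 naive from 5 SCVS libraries. Most rows hold a few large counts among zeros, as in Tbx18 with 546 counts in naive 1 and 362 in SCVS 4, while Dlx5 has counts in 4 naive libraries and in no SCVS library.

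The comparison of SCVS with naive asks which of these genes changed with stress. Among the 9 tested members, only Dlx5 had reads in 1 group alone, in 4 of 5 naive libraries and in no SCVS library. The share of all genes with such a pattern was not counted, and the call of Dlx5 depended on the test used. The other 8 members that could be tested had fitted differences in both directions, none larger than its own standard error. Only 9 of the 60 members passed the filter of more than 5 counts in at least 3 libraries: Hoxa9, Hoxd4, Hoxd8, Hoxd9, Msx1, Dlx5, Tbx2, Tbx3 and Tbx4. After Benjamini-Hochberg adjustment of the edgeR quasi-likelihood test, 0 of these 9 had an adjusted p under 0.1, where 0 of all 14815 tested genes (0%) did. At an unadjusted p under 0.05 there was 1 member, Dlx5, beside 460 of 14815 genes (3.1%). DESeq2 called 1 member as lower in SCVS, again Dlx5, beside 40 of the 13998 genes (0.286%) to which it gave a p. The edgeR likelihood ratio test also called Dlx5 alone, where 14 of 14815 genes (0.0945%) were called as lower, and limma with voom called 0 members and 2 genes. Groups that did not overlap in CPM were found in 0 of the 9 members and in 93 of 14815 tested genes (0.628%).

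The 9 tested members had a median log2 fold change of −0.22, with 4 higher and 5 lower. Setting Dlx5 at its bound could not move the median, because Dlx5 stayed the lowest of the 9. The sign of the median depended on the libraries and the filter. The median was 0.57 without naive 2, 0.61 without naive 4, 0.11 without SCVS 1, 0.03 without SCVS 4 and 0.07 without SCVS 5. With filterByExpr it was 0.65, and without naive 1, naive 5 and SCVS 5 it was 0.44. Over all tested genes the median was −0.03, with 7137 higher and 7678 lower. Standard errors of the members' log2 fold changes ran from 1.92 to 2.68, so that only a difference of many-fold could pass. The p-values measure the spread between pooled libraries. The tested members were lower than other tested genes, with a median of their mean CPM of 4.35 against 21.0, and had more empty libraries, with 0 counts in 3 or more libraries for 8 of 9 (88.9%), against 4631 of 14815 (31.3%) among all tested genes. In RNA from pooled cells, fewer cells of a type and less RNA per cell cannot be told apart.

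Among the Hox genes, the reads were concentrated in the Hoxd cluster. Of 39 Hox genes, 11 were detected in any library, with 3 of 11 in Hoxa, 2 of 10 in Hoxb, 1 of 9 in Hoxc and 5 of 9 in Hoxd. Hoxd genes held 1751 of the 2024 Hox reads, while Hoxa held 170, Hoxb 66 and Hoxc 37. Counted by library and gene, 23.3% of the Hoxd values exceeded 3 counts, against 4.55% in Hoxa, 2.00% in Hoxb and 1.11% in Hoxc. All 5 detected Hoxd genes were detected in both groups.

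Along the clusters, the paralogue groups 1 and 2, which mark the hindbrain end of the Hox domain, had no read in any library across their 5 genes. Groups 11, 12 and 13, which pattern the trunk end and the distal limb, had 1, 6 and 5 reads in all across 9 genes, with none of these genes above 3 counts in a library. Between these ends, the middle groups 8 and 9 held most of the reads, 802 in group 8 and 662 in group 9. All 802 reads of group 8 came from Hoxd8, since Hoxb8 and Hoxc8 had none. In group 9, Hoxd9 had 533 and Hoxa9 128. Group 7 had 1 read over its 2 genes.

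**Figure D2:**
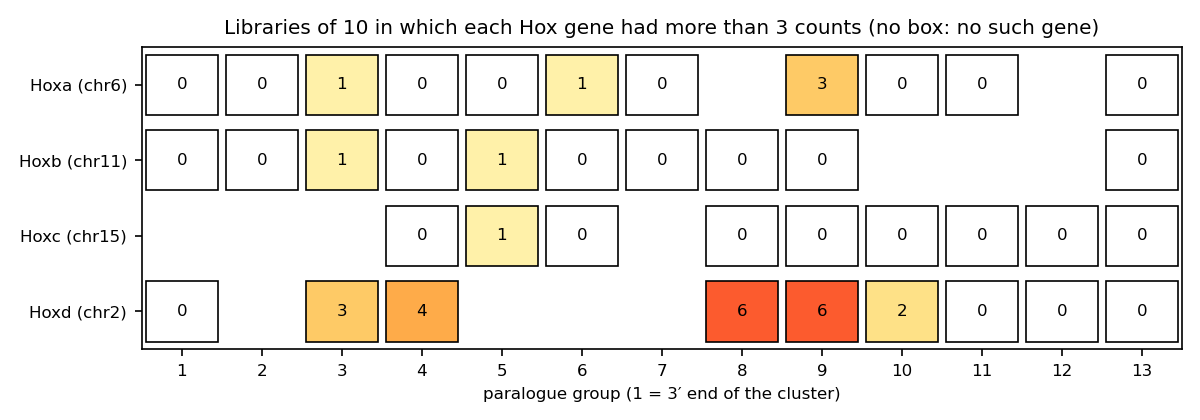
Number of the 10 libraries with more than 3 counts for each Hox gene, by cluster (rows) and paralogue group (columns, from the 3′ end), with darker boxes for more libraries. Hoxd8 and Hoxd9 reach 6 libraries each and Hoxd4 reaches 4, while groups 1, 2, 7 and 11 to 13 stay at 0.

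Hoxd8 (chr2:74704615-74707933, GRCm38.p6), a homeobox gene that has been placed downstream of Prox1 in lymphatic endothelium and that overlaps the predicted gene Gm38462, had 101, 0, 0, 77 and 0 counts in naive 1 to 5 and 9, 146, 384, 84 and 1 in SCVS 1 to 5. It exceeded 3 counts in 2 naive and 4 SCVS libraries, and the groups overlapped. Its level was 3.07 ± 4.44 CPM in naive and 10.1 ± 12.8 CPM in SCVS (SD, n = 5). The log2 fold change was 1.66 with a standard error of 2.21 (edgeR adjusted p = 1.00, unadjusted p = 0.467 in that fit). With 1 library left out, it ran from 0.50 without SCVS 3, which held 47.9% of the reads, to 2.84 without naive 1. Without naive 1, naive 5 and SCVS 5, the means were 1.89 ± 3.28 CPM in 3 naive and 12.5 ± 13.3 CPM in 4 SCVS libraries, with a log2 fold change of 2.77 and an edgeR adjusted p of 1.00. Prox1 had 0, 886, 727, 56 and 843 counts in naive 1 to 5 and 15, 285, 2751, 1633 and 2 in SCVS 1 to 5. SCVS 3 had the most reads of both genes, whereas naive 2, naive 3 and naive 5 had Prox1 reads and no Hoxd8 read.

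Hoxd9 (chr2:74697763-74700208), its neighbor in the cluster, had 70, 34, 0, 92 and 0 counts in naive 1 to 5 and 0, 215, 78, 44 and 0 in SCVS 1 to 5. It was detected in 3 libraries of each group, high in SCVS 2 and at 0 in naive 3, naive 5, SCVS 1 and SCVS 5. The means were 3.23 ± 3.39 CPM in naive and 5.46 ± 7.31 CPM in SCVS, and the log2 fold change of 0.64 (standard error 2.19, edgeR adjusted p = 1.00) turned to −0.40 without SCVS 2. Hoxd8 and Hoxd9 were detected together in 5 libraries (naive 1, naive 4, SCVS 2, SCVS 3 and SCVS 4) of the 7 in which either was, and neither was in naive 3, naive 5 and SCVS 5. The summed level of 7 LEC markers was 1019 CPM in naive 3, 185 CPM in naive 5 and 440 CPM in SCVS 5. In the 5 libraries with both genes it was 60.8 CPM in naive 1, 1180 CPM in naive 4, 1123 CPM in SCVS 2, 3074 CPM in SCVS 3 and 3051 CPM in SCVS 4.

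Hoxd4 (chr2:74721978-74729160) and Hoxd3 (chr2:74711993-74748271) overlap in the annotation, together with the microRNA gene Mir10b, so reads in the overlap could belong to either. Hoxd4, a gene of the hindbrain and neck in the embryo, had 10, 13, 1, 47 and 0 counts in naive 1 to 5 and 0, 0, 0, 40 and 2 in SCVS 1 to 5. Naive 4 and SCVS 4 were high, the groups overlapped, and 3 naive libraries but 1 SCVS library exceeded 3 counts. The level was 1.10 ± 1.40 CPM in naive and 0.645 ± 1.33 CPM in SCVS, with a log2 fold change of −0.73 (standard error 1.92, edgeR adjusted p = 1.00) that became 0.33 without naive 4 and −4.25 without SCVS 4. Hoxd3 did not pass the filter of the test, with 39, 20 and 4 counts in naive 1, naive 2 and SCVS 3 and 0 in the others.

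Hoxd10 (chr2:74684273-74695106), a gene of the trunk and limb, had 0, 228, 0, 0 and 1 counts in naive 1 to 5 and 5, 0, 0, 0 and 0 in SCVS 1 to 5. Naive 2 alone supplied 97.4% of its reads, and it did not pass the filter. Hoxd10 overlaps Hoxd11 in the annotation, so reads in the overlap could belong to either, and Hoxd11 had no count. Hoxd12 had 3 counts in SCVS 1 and 3 in SCVS 5, and Hoxd1 and Hoxd13 had none.

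**Figure D3:**
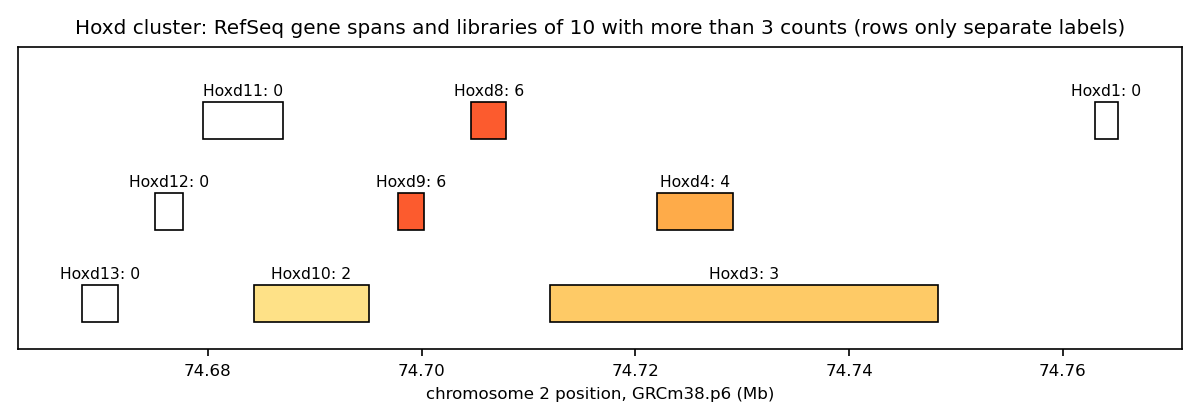
Map of the Hoxd cluster on chromosome 2 with RefSeq gene spans drawn to scale, where the vertical rows only keep labels apart and the number beside each gene is how many of 10 libraries had more than 3 counts. The detected genes run from Hoxd10 to Hoxd3, with 6 libraries each for Hoxd8 and Hoxd9, and Hoxd11, Hoxd12, Hoxd13 and Hoxd1 at the ends are at 0.

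Outside the Hoxd cluster, Hoxa9 (chr6:52223097-52227370), a regulator of blood stem cells and endothelium, was the only Hox gene tested. It had 0, 0, 46, 0 and 0 counts in naive 1 to 5 and 1, 0, 15, 0 and 66 in SCVS 1 to 5. Only naive 3, SCVS 3 and SCVS 5 exceeded 3 counts. The means were 0.658 ± 1.47 CPM in naive and 1.58 ± 2.86 CPM in SCVS, with a log2 fold change of 1.23 (standard error 2.31, edgeR adjusted p = 1.00). SCVS 5 held most of the SCVS reads, and without naive 1, naive 5 and SCVS 5 the means stood the other way, at 1.10 CPM (0 to 3.29) in 3 naive and 0.322 CPM (0 to 1.22) in 4 SCVS libraries, and the gene no longer passed the filter. The other 5 Hox genes above 3 counts outside Hoxd were each read in 1 library: Hoxa3 with 9 and Hoxb3 with 11 counts in SCVS 5, Hoxa6 with 24 in SCVS 4, Hoxb5 with 53 in naive 1 and Hoxc5 with 32 in naive 2. A further 9 Hox genes had at most 3 counts in a library and 19 had none.

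Promoter windows are shown for Hoxd8, Hoxd9, Msx1 and Hoxd4, the members detected in at least 4 libraries apart from Tbx3 and Dlx5, for which none was found. RefSeq windows (GRCm38.p6) of 250 bases before to 50 bases after the start were found for 35 of the 60 members, as 39 windows. The members' windows held a median of 15 CG dinucleotides and a G+C content of 59.0%, against 7 and 52.7% over 32851 windows of all genes. The windows of Hoxd9 (chr2:74697513-74697812, plus strand), Hoxd8 (chr2:74704365-74704664, plus strand), Hoxd4 (chr2:74721728-74722027, plus strand) and Msx1 (chr5:37824536-37824835, minus strand) follow, 5′ to 3′, with each CG in capitals:
Hoxd9: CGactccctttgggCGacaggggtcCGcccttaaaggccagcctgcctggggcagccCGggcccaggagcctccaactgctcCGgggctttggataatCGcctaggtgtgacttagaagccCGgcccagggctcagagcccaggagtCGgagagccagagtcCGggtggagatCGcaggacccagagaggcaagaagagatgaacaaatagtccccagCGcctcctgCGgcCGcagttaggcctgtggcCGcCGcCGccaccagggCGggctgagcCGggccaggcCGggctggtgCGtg
Hoxd8: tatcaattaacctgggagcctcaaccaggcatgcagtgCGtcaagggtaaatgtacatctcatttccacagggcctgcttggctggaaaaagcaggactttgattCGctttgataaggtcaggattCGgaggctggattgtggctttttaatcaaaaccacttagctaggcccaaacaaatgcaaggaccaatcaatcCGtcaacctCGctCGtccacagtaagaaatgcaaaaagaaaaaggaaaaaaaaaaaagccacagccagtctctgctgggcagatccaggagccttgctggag
Hoxd4: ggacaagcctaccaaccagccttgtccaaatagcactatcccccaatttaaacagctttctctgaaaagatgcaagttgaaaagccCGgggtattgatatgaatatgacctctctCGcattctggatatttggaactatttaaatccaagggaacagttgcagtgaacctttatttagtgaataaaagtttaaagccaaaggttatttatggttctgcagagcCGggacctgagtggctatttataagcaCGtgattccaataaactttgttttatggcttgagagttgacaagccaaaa
Msx1: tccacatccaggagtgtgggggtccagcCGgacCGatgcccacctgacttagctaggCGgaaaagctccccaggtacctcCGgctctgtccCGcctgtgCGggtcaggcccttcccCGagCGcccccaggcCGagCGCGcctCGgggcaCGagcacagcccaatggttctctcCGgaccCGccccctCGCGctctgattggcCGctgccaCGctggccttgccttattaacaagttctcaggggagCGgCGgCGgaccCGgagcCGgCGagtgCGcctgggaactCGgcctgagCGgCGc
Msx1 had 29 CG dinucleotides at 70.0% G+C and Hoxd9 had 20 at 68.3%, while Hoxd8 had 6 at 46.7% and Hoxd4 had 4 at 39.7%. The homeodomain core TAATTA, searched on both strands, was in none of these 4 windows, in 5 of the 39 members' windows (12.8%) and in 5.29% of all windows. The letters TATAAA, searched likewise, were in the Hoxd4 window once, in 7 of the 39 (17.9%) and in 13.6% of all windows. These matches describe letters in a window only.

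Msx1 (chr5:37820491-37824585), a homeobox gene of the skull vault and teeth, held more reads than any other member, 2336 of 7403. It had 170, 248, 0, 459 and 0 counts in naive 1 to 5 and 659, 661, 2, 0 and 137 in SCVS 1 to 5. In both groups 3 libraries were high and 2 were at or near 0, and the groups overlapped, although SCVS 1 and SCVS 2 lay above every naive library. The level was 13.9 ± 14.3 CPM in naive and 23.0 ± 25.9 CPM in SCVS (SD, n = 5), with a log2 fold change of 0.63 and a standard error of 2.05 (edgeR adjusted p = 1.00). Leaving out naive 1, naive 5 and SCVS 5 gave a log2 fold change of 0.44 (edgeR adjusted p = 1.00). With 1 library left out, it was 0.11 without SCVS 2, 0.18 without SCVS 1, 0.30 without naive 3, 0.32 without naive 5, 0.95 without SCVS 3 or SCVS 4 and 1.25 without naive 4. Its annotated antisense gene Msx1os overlaps it and has no row in the table.

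Msx2, a partner of Msx1 in the sutures of the skull, had 14 counts in naive 4, 22 in SCVS 5 and 0 in the other libraries, both of them libraries in which Msx1 was read. Msx3, a gene of the embryonic spinal cord, had no read. Msx1 was detected in 6 libraries, and in 4 of them Hoxd8 was too. Neither gene was detected in naive 3 and naive 5.

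**Figure D4:**
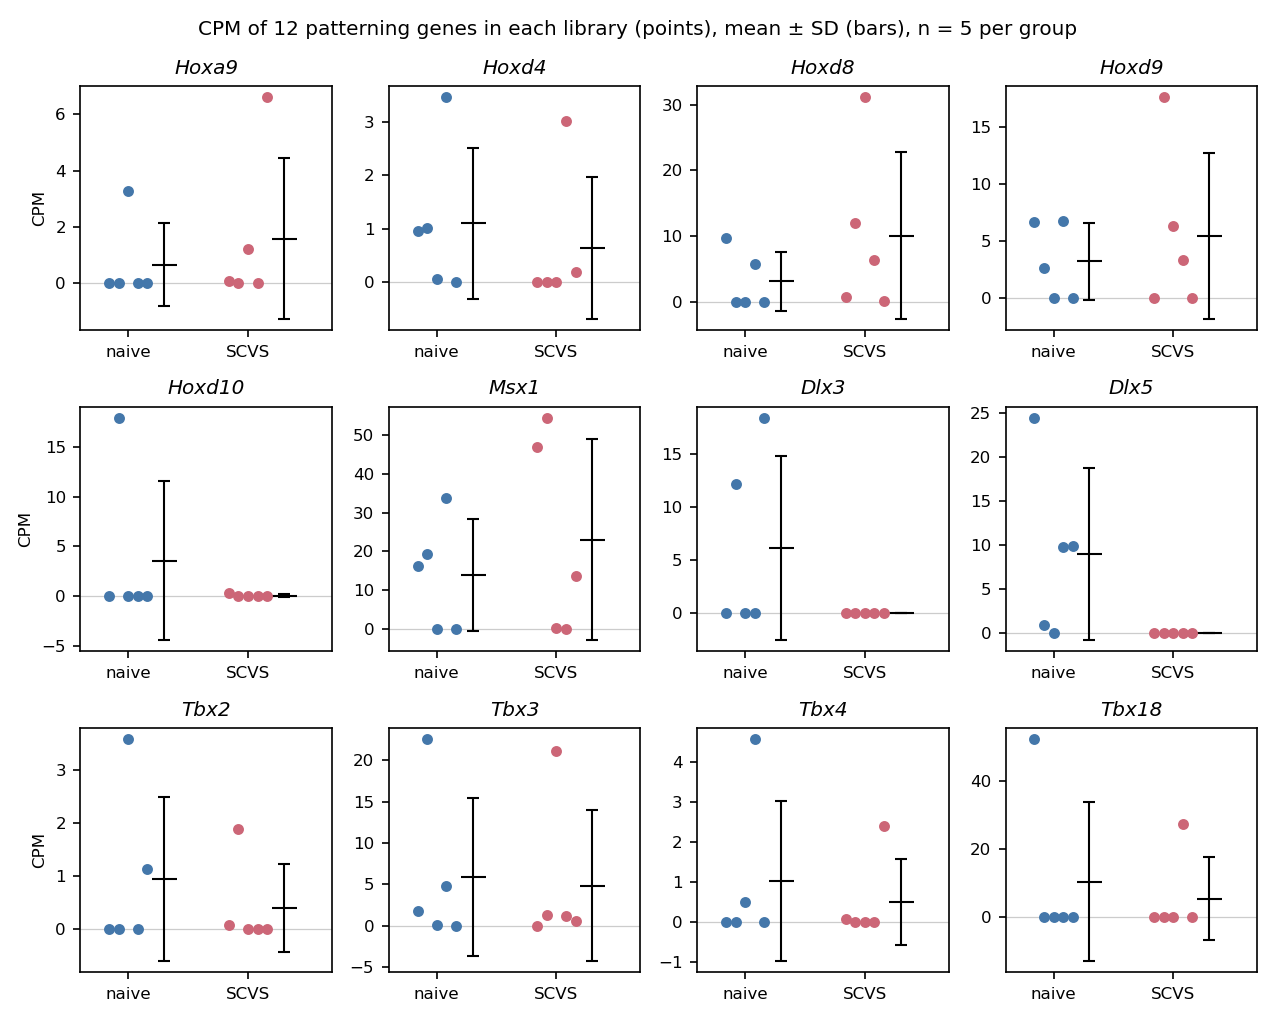
CPM of the 9 tested members and of Hoxd10, Dlx3 and Tbx18 in each library (points), with the mean and SD of 5 libraries per group beside them (bars, which can extend below 0), on a linear axis of its own for each gene. Naive and SCVS points overlap for every gene, and Dlx3 and Dlx5 lie at 0 in all 5 SCVS libraries.

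All 6 Dlx genes were detected in some library, and their summed reads were mostly naive. The summed Dlx level was 31.7, 13.4, 3.65, 9.73 and 28.4 CPM in naive 1 to 5 and 1.56, 0, 1.22, 0 and 2.50 CPM in SCVS 1 to 5. Every naive library lay above every SCVS library in this sum, to which Dlx5 and Dlx3 gave most reads in 4 naive libraries and Dlx1 gave all in naive 3. The sum was chosen after its values were seen and was not tested.

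Dlx5 (chr6:6877801-6882068), a homeobox gene that drives the lower jaw and bone formation, had 254, 12, 0, 132 and 131 counts in naive 1 to 5 and 0 in each of SCVS 1 to 5. Naive 3 shared the value of 0 with the SCVS libraries, so the groups met at 0. The level was 8.97 ± 9.79 CPM in naive and 0 CPM in SCVS (SD, n = 5). With a floor of 3 counts per SCVS library, the naive mean exceeded the SCVS mean by at least 36.5-fold. The gene passed the filter through its naive reads alone, so a difference among libraries was built into its being tested. The fitted log2 fold change, which depends on the prior count, was −9.87 with a standard error of 2.68 (edgeR unadjusted p = 0.00694, adjusted p = 0.964). By DESeq2 the adjusted p was 0.0279, and by the edgeR likelihood ratio test it was 0.0997. Over the alternatives that kept all 10 libraries, the adjusted p by edgeR, DESeq2 or limma ran from 0.0275 to 1.00. The DESeq2 call was lost without naive 1 (adjusted p = 0.402), without naive 4 (adjusted p = 0.139) and without naive 5 (adjusted p = 0.126). It was kept without any 1 of the other 7 libraries (DESeq2 adjusted p = 0.00102 to 0.0712). Of those 7, only naive 2 had Dlx5 reads, with 12 counts, so leaving out any of the others removed a value of 0. These alternatives were chosen after seeing the data.

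Naive 1 and naive 5, which together held most Dlx5 reads, were the libraries with 1 to 2 counts of Lyve1. With naive 1, naive 5 and SCVS 5 left out, Dlx5 had counts in 2 of 3 naive libraries (12 and 132) and in 0 of 4 SCVS libraries and no longer passed the filter. Its naive mean was then 3.56 ± 5.36 CPM, at least 15.3-fold above SCVS with the same floor.

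Dlx6 (chr6:6863334-6867970), the neighbor of Dlx5 that acts with it in the jaw, had 76, 0, 0, 0 and 2 counts in naive 1 to 5 and 0 in SCVS 1 to 5. It was above 3 counts in naive 1 only, a library with Dlx5 reads, and was not tested. Dlx6os1, a long noncoding RNA gene (chr6:6820543-6871627) that overlaps Dlx6, had 16, 2, 0, 27 and 0 counts in naive 1 to 5 and 0, 0, 0, 500 and 283 in SCVS 1 to 5. SCVS 4 and SCVS 5 were high, and in both Dlx5 and Dlx6 were at 0. Its level was 0.736 ± 0.952 CPM in naive and 13.2 ± 18.4 CPM in SCVS, with a log2 fold change of 4.16 and a standard error of 2.72 (edgeR adjusted p = 1.00). Without a stated use of strand, reads within the overlap of Dlx6 and Dlx6os1 cannot be told apart. A second row with the symbol Dlx6os1 had no reads. The summed level of 10 neuron and glia markers was 1768 CPM in SCVS 4 and 1975 CPM in SCVS 5, against 152 to 383 CPM in SCVS 1 to 3, but 3477 CPM in naive 5, where Dlx6os1 was at 0. The part of these cells in the Dlx6os1 reads was not tested.

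Dlx3 (chr11:95120117-95125296), a gene of bone, teeth and skin, had 156 counts in naive 2, 245 in naive 5 and 0 in the other 8 libraries. It did not pass the filter and has no test. Its naive mean of 6.12 ± 8.66 CPM was at least 24.9-fold above SCVS with that floor. It rested on 2 libraries, of which naive 5 is 1. Without naive 1, naive 5 and SCVS 5, the naive mean was 4.07 ± 7.05 CPM, from naive 2 alone. With the same floor this was at least 17.5-fold above SCVS, a bound that rests on 1 library and covers counting error only. Dlx1 and Dlx2, best known from forebrain interneurons and the upper jaw, were read in naive 3 (51 counts of Dlx1) and SCVS 1 (22 counts of Dlx1), and in SCVS 5 (25 counts of Dlx2). Dlx1as, the antisense gene that overlaps Dlx1, had 30 counts in SCVS 1 and 5 in SCVS 2. Dlx4, the neighbor of Dlx3, had 15 counts in SCVS 3 alone.

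Markers of bone, fibroblasts and mural cells, in which Dlx5 or its relatives are known to act, were set beside the Dlx reads. The 10 osteoblast and bone markers summed to 190, 251, 204, 482 and 69.0 CPM in naive 1 to 5 and 426, 154, 25.5, 193 and 173 CPM in SCVS 1 to 5, with the groups overlapping. Alpl was the most abundant, at 197 ± 122 CPM in naive and 153 ± 125 CPM in SCVS, and blood vessels also express it. Bglap, which encodes osteocalcin, had 45, 387, 0, 92 and 47 counts in naive 1 to 5, above 0 in the same 4 naive libraries as Dlx5, and 60, 0, 78, 90 and 209 in SCVS 1 to 5, where Dlx5 was at 0. Among the other markers, Sost and Dmp1 had no read, Phex had 1 read in naive 3, Ibsp was read in naive 4 only (418 counts), and Sp7 had 8 counts in naive 1, 47 in naive 5 and at most 1 in the others. Runx2 had 13, 160, 0, 379 and 0 counts in naive 1 to 5 and 0, 33, 12, 346 and 21 in SCVS 1 to 5, with reads in both groups. Spp1 was at 12.67 ± 16.48 CPM in naive and 24.72 ± 26.05 CPM in SCVS, and Bglap2 at 5.57 ± 7.55 and 2.07 ± 3.54 CPM. Of the 5 tested bone markers, 1 (Spp1) was fitted higher in SCVS and 4 lower. By edgeR, 0 of the 5 had an adjusted p under 0.1 or an unadjusted p under 0.05, and DESeq2 called 0. The part of bone cells in the Dlx reads, from cells sorted as CD31-positive, was not tested.

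The 8 dural fibroblast markers summed to 1193, 1953, 1039, 719 and 55.6 CPM in naive 1 to 5 and 189, 154, 257, 187 and 1527 CPM in SCVS 1 to 5. Except for naive 5 and SCVS 5, the naive libraries were above the SCVS libraries. By edgeR, 0 of 8 had an adjusted p under 0.1 and 3 an unadjusted p under 0.05, and 7 of 8 had a fitted difference below 0. Dcn was the most abundant, with 5256, 2198, 5547, 1753 and 475 counts in naive 1 to 5 and 0, 491, 1660, 1115 and 11569 in SCVS 1 to 5, so that its SCVS mean rested on SCVS 5, and no marker of the list was at 0 throughout. Col6a1, the only one that DESeq2 called here, had 1789, 1411, 559, 1666 and 1 counts in naive 1 to 5 and 7, 12, 1, 1 and 0 in SCVS 1 to 5. The study's DESeq2 analysis, at the same threshold of 0.1, reported Col1a2 and Col3a1 as lower with stress as well as Col6a1. It described them as changes of the LECs. These 3 genes are the ones with an edgeR unadjusted p under 0.05 here, and the list was chosen with earlier results of these data known. Naive 5 had 131 Dlx5 and 245 Dlx3 reads with the lowest fibroblast sum, and naive 3 had neither gene with a sum of 1039 CPM. The study gated other stromal cells, which it describes as mostly fibroblast-like, as CD45-negative and CD31-negative, apart from the sorted cells. The part of fibroblast RNA in the Dlx result was not tested.

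The 8 mural markers summed to 7687, 1239, 803, 3777 and 5078 CPM in naive 1 to 5 and 1155, 5924, 3293, 3079 and 431 CPM in SCVS 1 to 5. Rgs5, a pericyte gene, was the most abundant at 3082 ± 2433 CPM in naive and 2671 ± 2152 CPM in SCVS. Of the 8 markers, 7 had a fitted difference below 0, with a median log2 fold change of −1.60, and Acta2, a smooth muscle gene, had 15898, 6459, 670, 201 and 276 counts in naive 1 to 5, most of them in naive 1, and 1194, 172, 250, 21 and 151 in SCVS 1 to 5. The 3 naive libraries with more than 100 Dlx5 counts, naive 1, naive 4 and naive 5, had the highest naive mural sums, but SCVS 2 had a sum of 5924 CPM with no Dlx5 read. By edgeR 0 of 8 were called, Acta2 alone had an unadjusted p under 0.05, and DESeq2 called it as well. A part of mural RNA in the Dlx5 reads, from cells sorted as CD31-positive, was not tested.

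Among the 12 T-box genes, 9 were detected in some library and 3 were tested. Tbx3 (chr5:119670534-119684724), a repressor needed in limb, heart and mammary gland, was detected in 7 libraries, more than any other member. It had 18, 288, 1, 65 and 0 counts in naive 1 to 5 and 0, 15, 260, 15 and 6 in SCVS 1 to 5. A single library was high in each group, naive 2 and SCVS 3, and the groups overlapped. The level was 5.83 ± 9.55 CPM in naive and 4.81 ± 9.12 CPM in SCVS, with a log2 fold change of −0.22 (standard error 2.09, edgeR adjusted p = 1.00). Without SCVS 3 the fold change was −3.00. Without naive 2 it turned to 1.58, and leaving out SCVS 1, SCVS 2, SCVS 4 or SCVS 5 also turned it, to between 0.01 and 0.11. Its span overlaps that of the noncoding gene Tbx3os1.

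Tbx2 (chr11:85832615-85841948), a close relative of Tbx3, had 0, 0, 50, 0 and 15 counts in naive 1 to 5 and 1, 23, 0, 0 and 0 in SCVS 1 to 5. The means were 0.941 ± 1.55 CPM in naive and 0.392 ± 0.838 CPM in SCVS, with a log2 fold change of −1.46 (standard error 2.11, edgeR adjusted p = 1.00). Tbx4 (chr11:85886367-85916097), a hindlimb and lung gene next to Tbx2, had 0, 0, 7, 62 and 0 counts in naive 1 to 5 and 1, 0, 0, 0 and 24 in SCVS 1 to 5. Its means were 1.01 ± 2.00 CPM in naive and 0.495 ± 1.07 CPM in SCVS, with a log2 fold change of −0.99 (standard error 2.19, edgeR adjusted p = 1.00). In both genes 2 naive libraries and 1 SCVS library exceeded 3 counts, and the groups overlapped. Although they are neighbors, both were detected only in naive 3. Tbx2 and Tbx4 no longer passed the filter when naive 1, naive 5 and SCVS 5 were left out. SCVS 5 held 24 of the 25 SCVS reads of Tbx4, whose mean in the 4 other SCVS libraries was 0.0177 ± 0.0355 CPM.

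Tbx18 (chr9:87702800-87731260), a gene of pericytes, smooth muscle and the epicardium, had 546 counts in naive 1, 362 in SCVS 4, 2 in SCVS 2 and 0 in the other 7 libraries. It did not pass the filter. Its mean of 10.5 ± 23.4 CPM in naive rested on naive 1 and was 0 CPM without that library and naive 5, while the SCVS mean was 5.50 ± 12.2 CPM. Naive 1 had the highest mural sum, 7687 CPM, and SCVS 4 had 3079 CPM, close to the 3293 CPM of SCVS 3, where Tbx18 had no read. The part of mural cells in Tbx18 was not tested. Of the remaining T-box genes, Tbx21, the T-bet gene of T and natural killer cells, had 40 counts in SCVS 4, where Ptprc had 113. The 11 T and natural killer markers summed to at most 1.41 CPM in 9 libraries, 0.453 CPM in SCVS 4 among them, and to 8.73 CPM in SCVS 1, with Cd3g, Cd4, Cd8a and Ifng at 0 throughout and Gzmb the most abundant. Tbx5, a forelimb and heart gene, had 27 counts in SCVS 1, Tbx10 had 32 in SCVS 5, Tbx20, a heart gene, had 7 in SCVS 2 and Tbx15, a gene of skeleton and skin, had 2, 3 and 4 counts in naive 1, naive 2 and naive 4. Tbx6 had at most 3 counts, and Tbx19 and Tbx22 had none.

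Levels of different genes were compared per kb of exonic length. Over the 10 libraries Msx1 had 9.53 ± 10.5 CPM per kb (SD), Dlx5 had 3.15 ± 5.67, Hoxd8 had 2.39 ± 3.54, Hoxd9 had 1.99 ± 2.52 and Tbx18 had 1.71 ± 3.81 CPM per kb. Dlx3 followed at 1.16 ± 2.51, Tbx3 at 0.992 ± 1.64 and Hoxd10 at 0.690 ± 2.12 CPM per kb. Each SD exceeded its mean, so no neighbors in this order differed beyond their spread. In naive libraries alone the order began with Msx1 (7.19 CPM per kb), Dlx5 (6.31), Dlx3 (2.32) and Tbx18 (2.24). Without naive 1 and naive 5, the naive mean of Tbx18 was 0 CPM. Not scaled by length, the naive means were then 17.75 CPM for Msx1, 3.56 CPM for Dlx5, 4.07 CPM for Dlx3 and 5.95 CPM for Hoxd10. Such values do not rank genes of different length, so the order of these genes without those libraries is not given. In SCVS libraries it began with Msx1 (11.9 CPM per kb), Hoxd8 (3.66), Hoxd9 (2.50) and Tbx18 (1.18).

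The partners and regulators of the Hox genes were read far more widely than the Hox genes themselves. Of 11 TALE homeodomain genes, whose products bind DNA with Hox proteins, 9 were tested, with 4 fitted higher, 5 lower, a median log2 fold change of −0.12 and 0 called by edgeR or DESeq2. Meis2 stood at 60.1 ± 46.9 CPM in naive and 82.1 ± 75.0 CPM in SCVS. Meis1 was read in naive 5 only, with 8 counts. Of 21 Polycomb and Trithorax genes, which keep Hox clusters silent or active, all 21 were tested, with 12 fitted higher, 9 lower, a median of 0.17 and 0 called. Bmi1, a Polycomb subunit, was at 71.0 ± 46.9 CPM in naive and 87.5 ± 64.5 CPM in SCVS, and Kmt2a, a Trithorax methyltransferase, at 89.6 ± 44.8 and 42.0 ± 24.1 CPM (log2 fold change −1.16, edgeR adjusted p = 1.00).

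Of 21 genes of retinoid, BMP and other upstream signals, 14 were tested, with 10 fitted higher, 4 lower, a median log2 fold change of 0.57 and 0 called by edgeR. Aldh1a1, which makes retinoic acid, was at 57.3 ± 67.6 CPM in naive and 69.7 ± 28.6 CPM in SCVS, and Edn1, a peptide signal that switches on Dlx5 in the embryonic jaw, at 35.9 ± 25.4 and 89.1 ± 75.5 CPM (log2 fold change 1.25, edgeR adjusted p = 1.00). Rara, a retinoic acid receptor, was the only gene of this list that DESeq2 called, named here after its values were seen, with 15, 19, 25, 94 and 3 counts in naive 1 to 5 and 661, 391, 60, 133 and 340 in SCVS 1 to 5. Its groups overlapped only through naive 4, and its log2 fold change was 3.38 with a standard error of 1.27 (edgeR unadjusted p = 0.0213, adjusted p = 1.00). The caudal genes Cdx1, Cdx2 and Cdx4, which activate trunk Hox genes, had no read.

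Of 30 listed noncoding and neighboring genes of the Hox and Dlx loci, 26 were found in the table and 9 were tested, with 7 fitted higher, 2 lower, a median log2 fold change of 0.29 and 0 called. Genes at the edge of the clusters differed widely. Mtx2 beside Hoxd stood at 128 ± 55.1 CPM in naive and 111 ± 26.1 CPM in SCVS, and Skap2 beside Hoxa at 44.9 ± 17.3 and 48.1 ± 43.8 CPM. Evx2 beside Hoxd13 had no read, Evx1 beside Hoxa13 had 3 in naive 4, and Skap1 beside Hoxb had 3 in naive 3 and 58 in SCVS 5. Hoxd3os1 (chr2:74710044-74716130), a long noncoding RNA gene that overlaps Hoxd3, was named after its values were seen and had 13, 200, 36, 22 and 0 counts in naive 1 to 5 and 38, 40, 113, 12 and 50 in SCVS 1 to 5. It exceeded 3 counts in 9 libraries, more than any Hox gene, including SCVS 5 and naive 3, where Hoxd8 and Hoxd9 were at 0 to 1 counts. Its level was 4.22 ± 6.46 CPM in naive and 4.21 ± 3.13 CPM in SCVS, with a log2 fold change of 0.00 and a standard error of 1.60 (edgeR adjusted p = 1.00). Hotairm1 in the Hoxa cluster had 65 and 7 counts in SCVS 1 and SCVS 2 and none elsewhere. Hotair had 2 reads and Hottip none.

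Of 41 head mesenchyme factors, 20 were tested, with 11 fitted higher, 9 lower, a median log2 fold change of 0.23 and 0 called. Meox1 was the most abundant at 138 ± 77.1 CPM in naive and 262 ± 142 CPM in SCVS, followed by Otx2 at 46.8 ± 48.7 and 51.8 ± 41.6 CPM and Foxc1, a gene of the meninges and of lymphatic vessels, at 31.0 ± 25.4 and 23.7 ± 14.3 CPM. In 8 of the 41, among them Hand2, Gsc and Pax3, no read was found. Alx4, a skull gene named after its values were seen as the only one of this list with an unadjusted p under 0.05, had 147, 300, 16, 0 and 0 counts in naive 1 to 5 and 7, 0, 1, 0 and 0 in SCVS 1 to 5 (edgeR unadjusted p = 0.0443, adjusted p = 1.00). Naive 2 had the most Alx4 reads and also Dlx3 reads, naive 1 had Alx4 but no Dlx3 reads and naive 5 the reverse, and the groups overlapped. Of 4 other T-box genes found, Mga alone was tested, at 83.6 ± 35.5 CPM in naive and 43.4 ± 16.2 CPM in SCVS (log2 fold change −0.96, edgeR adjusted p = 1.00), while Eomes, Tbr1 and T had at most 11 counts in any library.

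Endothelial identity genes gave the frame for these levels. Of 17 meningeal and venous endothelial factors, 16 were tested, with 12 fitted higher, 4 lower and 0 called, led by Sox18 at 641 ± 343 CPM in naive and 771 ± 337 CPM in SCVS. The 7 LEC markers summed to 60.8, 2747, 1019, 1180 and 185 CPM in naive 1 to 5 and 1378, 1123, 3074, 3051 and 440 CPM in SCVS 1 to 5, with 0 of 7 called and Mmrn1 the most abundant. The 7 blood endothelial markers summed to 7488, 5421, 8606, 7210 and 313 CPM in naive 1 to 5 and 6338, 9161, 4773, 4978 and 4790 CPM in SCVS 1 to 5, with Plvap the most abundant and 0 of 7 called. This sum exceeded the LEC sum in every library. The sums cover different genes, are not scaled by length and do not compare the amounts of the cell types. Myeloid markers summed to 3.17, 194, 29.2, 596 and 58.8 CPM in naive 1 to 5 and 242, 151, 910, 4331 and 351 CPM in SCVS 1 to 5, highest in SCVS 4, with Lyz2 the most abundant. All 7 tested markers were fitted higher, with 0 called by edgeR and Ptprc called by DESeq2. Ptprc passed the filter through its SCVS reads alone, so a difference among libraries was built into its being tested. Neuron and glia markers summed to 1097 ± 1370 and 907 ± 887 CPM, led by Mbp, and arachnoid and pia markers to 282 ± 127 and 393 ± 201 CPM, led by Ptgds, with 0 called in either list. The part of these cells in the members' reads was not tested beyond the values given with each gene.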

How the data were processed

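Per the labels, the authors sequenced RNA of sorted meningeal LECs in 5 naive and 5 SCVS libraries, and they deposited raw read counts per gene. The submitters' processing notes name cutadapt 1.9.1, HISAT2 2.0.1, HTSeq 0.6.1 and the build GRCm38, whereas the study's methods name mm9. Because 58.8% of the table's identifiers are in the mm9 annotation GENCODE M1, coordinates, overlaps and promoters were taken from RefSeq GRCm38.p6, where all 60 members were found by symbol. The annotation release and the use of strand are not given in the sources used here. Exonic lengths came from GENCODE M1 by symbol.

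CPM used each library's total count. The test took genes whose count exceeded 5 in 3 or more of the 10 libraries and used edgeR 4.0.16 (quasi-likelihood, TMM, R 4.3.3), with p adjusted over all tested genes, threshold 0.1. The standard error is the absolute log2 fold change over the root of F. Bounds divide a group's mean CPM by that of 3 counts per library in the other. They cover counting error only and do not measure the spread between libraries. Alternatives used DESeq2 1.42.0, limma 3.58.1 with voom, edgeR's likelihood ratio test, RLE and total-count scaling, filterByExpr and no filter, the replicate number as a block and each library left out. The fits were tested on simulated counts, where each recovered nearly all changed genes at a low spread. At a spread near that of these data, edgeR and limma missed most or all of them, and DESeq2 also called unchanged genes. Python 3.11.15, pandas 2.3.3 and Matplotlib 3.10.9 handled the rest.

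Levels and tests are given for members tested or with at least 100 counts in 1 library, and counts of other members were chosen after their values were seen. From each of 16 gene lists, up to 4 of the most abundant genes were named, and every other list gene that the text names, apart from the sort markers, was chosen after its values were seen. The members and lists were chosen with earlier results of these data known.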

Additional observations from a re-analysis of the deposited data

Results flagged for a closer look

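In 12 of 30 sets of 5 values checked (by group, CPM of the 12 named members where not all 0, the number of members and of Hoxd genes detected, and the summed CPM of both), 1 library lay far from the other 4, with a gap of more than 0.71 of the range. Chance flags about 1 in 20 sets of normally distributed values, a rate that does not apply here. Most of these sets are largely zeros, and Hoxd10 and Tbx18 were named for their high count in 1 library, so the 12 are listed as values only. Among naive libraries these were Tbx18 at 52.4 CPM and Tbx4 at 4.57 CPM, from naive 1 and naive 4. Tbx3 at 22.6 CPM and Hoxd10 at 17.9 CPM both came from naive 2, and Hoxa9 at 3.29 CPM came from naive 3. Among SCVS libraries, SCVS 4 gave Tbx18 at 27.4 CPM and Hoxd4 at 3.02 CPM, SCVS 3 gave Tbx3 at 21.1 CPM, and SCVS 5 gave Hoxa9 at 6.61 CPM and Tbx4 at 2.40 CPM. SCVS 2 gave Tbx2 at 1.89 CPM, and SCVS 1 gave Hoxd10 at 0.355 CPM, which is 5 counts. All 12 values are the highest of their set, and every library except naive 5 supplied at least 1.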

How the results depend on the processing

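The count of 0 called members by edgeR's quasi-likelihood test was also 0 under other scalings and filters, limma with voom and each library left out, and 1 (Dlx5) under DESeq2 with and without its filters and under the edgeR likelihood ratio test. Over all genes, the count of 0 became 114 by DESeq2, 123 by DESeq2 without Cook's and independent filtering, 2 by limma with voom and 38 by the likelihood ratio test, and the causes were not tested. At an unadjusted p under 0.05, 1 of 9 members became 13 of 38 without a filter, where 4941 of 29449 genes (16.8%) had such a p, 12 of the 13 being untested otherwise, and 0 with filterByExpr, which tested 4 members and not Dlx5.

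Of 162 refitted log2 fold changes, 152 kept their sign and side of the threshold. The 7 that reversed all came from leaving out 1 library, with ranges of −4.25 to 0.33 for Hoxd4, −0.40 to 1.15 for Hoxd9 and −3.00 to 1.58 for Tbx3, where the 5 reversed Tbx3 values were 0.01, 0.03, 0.07, 0.11 and 1.58. Dlx5 ran from −10.18 to −9.05 with a library left out and was −5.90 by limma. The members' median of −0.22 ran from −0.54 to 0.61 with 1 library left out and was 0.65 with filterByExpr, and so changed sign. Hoxd8 ran from 0.50 to 2.84 and Msx1 from 0.11 to 1.25 with a library left out. Some fits left out Hoxa9, Tbx2 or Tbx4 for too few counts. By DESeq2, chosen after seeing the data, Dlx5 without 1 library ran from −9.65 to −8.50, and 98 to 214 genes were called, the most without naive 5. The added fit without naive 1, naive 5 and SCVS 5 called 0 members and 0 genes by edgeR, and 0 members and 159 genes by DESeq2. The edgeR log2 fold changes there were −0.93 for Hoxd4, 2.77 for Hoxd8, 1.06 for Hoxd9, 0.44 for Msx1 and −0.56 for Tbx3.

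With the replicate block, 0 members and 0 genes were called, Dlx5 had a log2 fold change of −8.99 (edgeR unadjusted p = 0.0503, adjusted p = 1.00) and the members' median was −1.07, with 3.85 for Hoxd8 and 1.88 for Msx1. Same-numbered libraries hold different animals, so the numbers were not taken as pairs of animals. The study states that its experiments, RNA-seq among them, used more than 1 cohort of mice, but the labels do not give the cohort. A batch shared by number therefore cannot be told from the labels. Deviations of same-numbered libraries correlated at −0.0105 to 0.137, although in 4 of the 5 numbers, all but number 3, the best partner had the same number. Detecting members at 1 count gave means of 10.2 in naive and 9.60 in SCVS, and above 10 counts 6.40 and 5.40. Scaling CPM by TMM moved none of 24 group means by more than 1 SD.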
